A study of Mus musculus with 17 samples.

Results

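The Slit, Robo and srGAP genes were followed in the cortex of adult male C57BL/6 mice exposed to chronic unpredictable stress (CUS). The set held 8 genes, picked by symbol: Slit1, Slit2, Slit3, Robo1, Robo2, Srgap1, Srgap2 and Srgap3. These were 8 of the 36293 genes listed in the bulk files and 8 of the 37608 genes listed in the single-nucleus tables. The set was chosen after Slit2 had been seen to be lower in CUS nuclei of cortical layers 2/3 and 4, so Slit2 values in nuclei are given below as a description, without a p-value.

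Slit proteins are large secreted glycoproteins, and Robo proteins are their receptors on the surface of axons and dendrites. Slit binding to Robo steers growing axons away from a source, as at the midline, and also shapes dendrites, cell migration and blood vessels. The srGAP proteins bind the inner part of Robo, switch off small GTPases and bend membranes, and Srgap2 is best known for setting the pace of synapse and spine maturation in cortical neurons.

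Nuclear RNA of the medial prefrontal cortex (mPFC) was sequenced in bulk from 4 control and 5 CUS mice at postnatal day 90. Single nuclei of the neocortex were profiled by sNucDrop-seq, a droplet method that counts unique molecular identifiers (UMIs), from 4 control and 4 CUS mice at postnatal day 80. CUS mice received a changing series of stressors over consecutive days, whereas control mice were handled but given none of them. The labels give the strain as C57BL/6 and the study's methods as C57Bl/6J, the labels name no engineered allele, and all of these mice were male. Every library was 1 mouse, and the bulk mice had also gone through behavioral tests after the stress.

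The bulk libraries held 26188825 to 30525015 counted reads, and the nuclei libraries held 1935 to 4235 kept nuclei with 4699542 to 12477099 UMIs. Kept nuclei were clustered, and 32 classes of at least 50 nuclei were compared. Of these, 16 took a name with the ending "-like" from marker genes, and the others are called by their leading genes. The neocortical libraries also held 1788 Striatal-like nuclei, which carried Drd1, Drd2 and other markers of striatal projection neurons. These made up 7.38% to 9.95% of the nuclei of control mice and 2.46% to 8.84% of those of CUS mice. Several nuclei libraries stood apart from the others of their group in the share of some classes. Among them were CUS replicates 1, 2 and 4 and control replicates 2 and 4. CUS replicate 2 held 8.84% Striatal-like nuclei against 2.46% to 5.03% in the other CUS mice. Replicate 1 held 8.41% Astro-like nuclei against 3.23% to 3.97%, 2.74% OPC-like nuclei against 1.27% to 1.64%, 1.02% Endothelial-like nuclei against 0.033% to 0.344%, and 2.29% nuclei of the cluster led by Nefm and Nefl against 0.206% to 1.12%. Control replicate 2 held 4.75% Oligo_Opalin-like nuclei against 0.951% to 2.43% in the other controls, 1.35% nuclei of the cluster led by Prox1 and Glis3 against 0.204% to 0.775%, and 3.11% nuclei of the cluster led by Tshz2 and Slc17a6 against 0.645% to 2.33%. Control replicate 4 held 6.51% Astro-like nuclei against 3.02% to 4.15% in the other controls. CUS replicate 4 held 3.78% Ex_Tshz2-like nuclei against 1.48% to 2.20% in the other CUS mice. For most members, summed values without CUS replicate 1, CUS replicate 2 or control replicate 2 are given below. At most 2 kept cell barcodes were shared by any pair of the 28 pairs of nuclei libraries.

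Slit2 and Slit3 each carry a microRNA gene of the miR-218 family in an intron, on the same strand as the host. Mir218-1 lay on mm10 chr5:48223942-48224051, in intron 14 of transcript Slit2-208, and Mir218-2 lay on chr11:35616816-35616925, in intron 14 of transcript Slit3-201. The mature sequences are shown because the same 5p arm comes from both hosts, which differed from control in opposite directions in the mPFC. They were taken from RefSeq on GRCm38.p6, the assembly behind mm10, and capitals mark the seed, bases 2 to 8.
mmu-miR-218-5p, from both genes: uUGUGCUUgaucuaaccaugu
mmu-miR-218-1-3p, from Mir218-1 in Slit2: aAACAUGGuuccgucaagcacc
mmu-miR-218-2-3p, from Mir218-2 in Slit3: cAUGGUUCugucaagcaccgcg
The 5p arm read chr5:48223966-48223986 and chr11:35616840-35616860 on the plus strand. Its seed differed from those of both 3p arms.

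The best studied targets of miR-218 include the Robo mRNAs, so the match to its seed was looked up in the 3' UTRs of Robo1 and Robo2. Robo1-201 held 1 match to the seed in 1733 bases of 3' UTR, and Robo2-203 held 2 matches in 3987 bases. In each gene 1 match was followed by an A, the longest form of a seed site, and capitals mark the matching bases.
Robo1, chr16:73045334-73045355, plus strand: ttttttggttttaaAAGCACAA
Robo2, chr16:73895358-73895379, minus strand: ttttatttggtgatAAGCACAA
A match of letters is a description and not evidence of binding. The bulk libraries held 2 to 10 reads per mouse on Mir218-1 and 7 to 13 on Mir218-2, too few to be tested, and mature microRNAs are not measured by such libraries.

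The promoters of Slit2 and Slit3 are shown because these were the members that passed the test in bulk. RefSeq promoters, 250 bases before to 50 bases after a start site, were at hand for 7 of the 8 members. Sets of letters were searched on both strands: TATAAA (the TATA box), GGGCGG (the GC box) and GCCATNTT (the core of the site of YY1, the factor that the study followed). Capitals mark matches.
Slit2, chr5:47982905-47983204, plus strand: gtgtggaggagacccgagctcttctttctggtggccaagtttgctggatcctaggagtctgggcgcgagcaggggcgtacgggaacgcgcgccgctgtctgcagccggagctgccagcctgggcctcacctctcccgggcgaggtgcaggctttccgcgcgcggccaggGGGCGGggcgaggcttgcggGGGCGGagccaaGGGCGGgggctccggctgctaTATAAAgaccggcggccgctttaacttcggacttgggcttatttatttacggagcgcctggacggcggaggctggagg
Slit3, chr11:35121206-35121505, plus strand: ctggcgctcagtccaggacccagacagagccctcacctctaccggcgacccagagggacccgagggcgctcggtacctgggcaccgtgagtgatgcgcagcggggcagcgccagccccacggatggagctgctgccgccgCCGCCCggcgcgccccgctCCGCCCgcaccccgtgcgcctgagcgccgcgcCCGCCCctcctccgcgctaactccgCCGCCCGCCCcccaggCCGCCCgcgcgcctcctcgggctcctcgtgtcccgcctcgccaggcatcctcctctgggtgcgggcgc
The Slit2 promoter held a TATA box whose first base lay 28 bases before the start, and 3 GC boxes. The Slit3 promoter held no TATA box in this window and 6 GC boxes, of which the pair starting 34 and 30 bases before the start overlapped. A TATA box was found in 13.6% of all 32817 promoters, a GC box in 35.6% and the YY1 core in 6.04%. The YY1 core was found in none of the 9 promoter entries of the members, which says only that these letters were not in these windows. GC content was 68% for Slit2 and 78.3% for Slit3, against a median of 52.7% for all promoters.

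In bulk mPFC, Slit2 was lower and Slit3 was higher in CUS mice than in controls, and the other 6 members did not pass the test. Levels are read counts relative to the library total (CPM), scaled by TMM, a factor that evens out library composition, and the test was edgeR's quasi-likelihood test over 18394 genes at an FDR of 0.05. By that test 2 of the 8 members were called, against 3.29% of all genes tested. Lower calls made up 2.13% and higher calls 1.16% of all genes. Fewer cells of a type and less RNA per cell cannot be told apart in such samples.

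**Figure D1:**
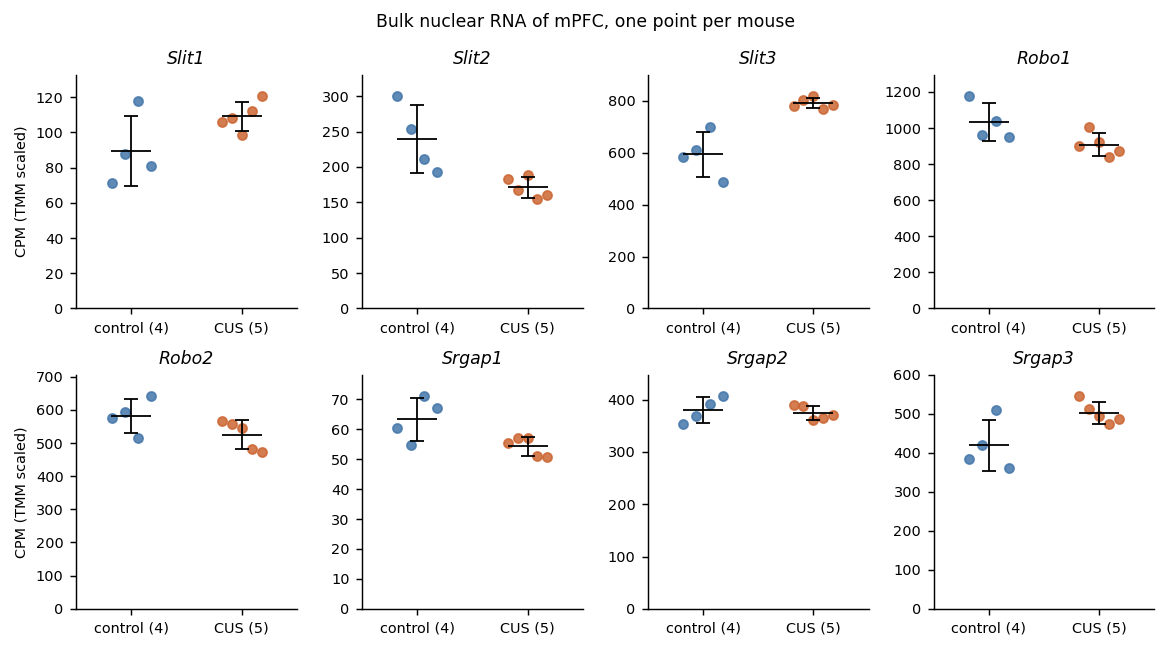
Level of each gene in bulk nuclear RNA of mPFC, in TMM-scaled CPM on axes that start at 0, with 1 point per mouse and the mean and SD as bars, for 4 control and 5 CUS mice. The CUS mice lay below all controls for Slit2 (155 to 188 CPM against 193 to 301) and above all controls for Slit3 (769 to 819 against 487 to 699), and the groups overlapped for the other genes.

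Slit2 (ENSMUSG00000031558, chr5:47983138-48307733, plus strand), a secreted repellent ligand, read 301, 254, 211 and 193 CPM in control replicates 1 to 4. It read 184, 167, 188, 155 and 161 CPM in CUS replicates 1 to 5. Every CUS mouse was below every control mouse, and the CUS mice lay closer together than the controls. The means were 240 ± 47.9 CPM (SD, n = 4) in controls and 171 ± 14.2 CPM (SD, n = 5) in CUS mice, a log2 change of -0.49 (SE 0.11) with an adjusted p of 0.0368 in edgeR. Groups that did not overlap were found for 8.75% of all genes, which, like every such share below, counts both directions. The change stayed between -0.57 and -0.36 without any single mouse, but the adjusted p exceeded 0.05 without control replicate 2 or without any of the 5 CUS mice in turn, and reached 0.111. With the replicate number as a block, on 4 mice against 4, the log2 change was -0.45 with an adjusted p of 0.0501 in edgeR, which did not pass. Whether the replicate numbers pair the bulk mice is not known, and a check of correlations could not exclude it.

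Slit3 (ENSMUSG00000056427, chr11:35121224-35708507, plus strand), another ligand of the family, read 582, 609, 699 and 487 CPM in control replicates 1 to 4. It read 778, 803, 819, 769 and 786 CPM in CUS replicates 1 to 5. Every CUS mouse was above every control mouse, and control replicate 4 was the lowest of all. The means were 594 ± 87.3 CPM (SD, n = 4) and 791 ± 20.1 CPM (SD, n = 5), a log2 change of 0.41 (SE 0.08) with an adjusted p of 0.0246 in edgeR. The change stayed between 0.34 and 0.50 without any single mouse, and the adjusted p exceeded 0.05 without control replicate 2 or CUS replicates 3, 4 or 5, and reached 0.0724.

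The reads of Slit3 were also set over those of Slit2 within each library. Since both genes had separate groups in opposite directions, the groups of this ratio had to be separate too, and it is given only as a description of its size. The ratio was 1.94, 2.40, 3.31 and 2.52 in control replicates 1 to 4. It was 4.24, 4.80, 4.36, 4.95 and 4.88 in CUS replicates 1 to 5. Reads were not divided by gene length here, so the ratio compares mice and not the abundance of the genes.

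Markers of several cell types had calls in the same libraries. The 9 striatal markers summed to 755 to 1314 CPM in controls and 1252 to 1507 CPM in CUS mice, with 1 of 9 called higher, and the 6 markers of oligodendrocyte precursors (OPC) summed to 1934 to 2494 CPM in controls and 2459 to 2712 CPM in CUS mice, with 1 of 6 called lower and 1 higher. Astrocyte markers had the most calls, 3 of 8 lower, with sums of 2216 to 2653 CPM in controls and 2034 to 2369 CPM in CUS mice. Of the oligodendrocyte lists, 2 of 5 Oligo_Enpp6 markers (134 to 167 against 120 to 139 CPM) and 1 of 8 Oligo_Opalin markers (328 to 751 against 343 to 434 CPM) were called lower. The 5 choroid plexus markers summed to 2.28 to 5.91 CPM in controls and 1.75 to 2.27 CPM in CUS mice, without overlap and with 1 called lower. Of the 3 excitatory neuron markers, 1 was called higher, with sums of 376 to 513 CPM in controls and 491 to 545 CPM in CUS mice. The lists for Ex_Tshz2, Claustrum and Inh_Ndnf cells also had 1 marker each called lower, and that for Inh_Ndnf had 1 called higher. The 5 layer 4 markers, whose cells carried much Slit2 in nuclei, summed to 293 to 371 CPM in controls and 252 to 352 CPM in CUS mice, with none called. The 5 Inh_Pv markers, of the large class with most Slit2 in nuclei, summed to 1177 to 1276 CPM in controls and 1113 to 1296 CPM in CUS mice. None of the 4 that were tested was called. None of these markers was at 0 in all libraries. Their part in the Slit2 and Slit3 results was not tested.

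Slit1 (ENSMUSG00000025020, chr19:41600257-41743665, minus strand), the ligand of the family that is most neural, read 71.1, 87.7, 118 and 81.1 CPM in control replicates 1 to 4. It read 106, 108, 98.6, 112 and 121 CPM in CUS replicates 1 to 5. The groups overlapped through control replicate 3 alone, and the log2 change of 0.29 (SE 0.12) had an adjusted p of 0.178 in edgeR. Without any single mouse the log2 change was 0.19 to 0.45 with an adjusted p of 0.00547 to 0.337 in edgeR, and it passed only without control replicate 3.

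The receptors Robo1 and Robo2, neighbours on chromosome 16, were measured at 1031 ± 106 and 582 ± 52.4 CPM (SD, n = 4) in controls. Robo1 (ENSMUSG00000022883, chr16:72308306-73046095, plus strand) ranged from 949 to 1179 CPM in controls and from 840 to 1007 CPM in CUS mice, a log2 change of -0.18 (SE 0.08) with an adjusted p of 0.182 in edgeR. Robo2 (ENSMUSG00000052516, chr16:73891839-74411825, minus strand) ranged from 515 to 642 CPM in controls and from 474 to 567 CPM in CUS mice, a log2 change of -0.15 (SE 0.08) with an adjusted p of 0.293. Neither receptor passed the test, and the groups overlapped for both. Without any single mouse the log2 change ranged from -0.22 to -0.12 for Robo1 and from -0.20 to -0.087 for Robo2, closest to 0 without control replicate 1 and control replicate 4, respectively. RefSeq also lists promoters of Robo2 at chr16:75447244-75447543 and chr16:75092721-75093020, upstream of the span used for counting, so reads from the first introns of those longer forms were not in these values.

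The srGAP genes act inside the cell, downstream of Robo. Srgap1 (ENSMUSG00000020121, chr10:121780991-122047315, minus strand) ranged from 54.7 to 71.1 CPM in controls and from 50.9 to 57.0 CPM in CUS mice, a log2 change of -0.22 (SE 0.08) with an adjusted p of 0.114 in edgeR. Srgap2 (ENSMUSG00000026425, chr1:131285251-131527352, minus strand) was the flattest member, at 380 ± 24.0 CPM (SD, n = 4) and 375 ± 12.8 CPM (SD, n = 5), with a log2 change of -0.02 (SE 0.06) and an adjusted p of 0.871 in edgeR. Srgap3 (ENSMUSG00000030257, chr6:112717971-112947266, minus strand) read 384, 421, 511 and 362 CPM in control replicates 1 to 4. It read 546, 512, 495, 474 and 486 CPM in CUS replicates 1 to 5, a log2 change of 0.26 (SE 0.09) with an adjusted p of 0.117 in edgeR. As for Slit1, only control replicate 3 reached into the range of the CUS mice, and without any single mouse the log2 change was 0.21 to 0.37 with an adjusted p of 0.00628 to 0.231, which passed only without that mouse. None of the 3 srGAP genes passed the test with all mice.

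Levels were compared between members only after division by the length of the gene on the genome, since nuclear RNA holds much unspliced transcript. Whether intronic reads were counted is not given in the sources used here, and if they were not, this length is the wrong divisor and the order below may not hold. In control mPFC the level per kb of gene was 1.83 CPM for Srgap3, 1.57 for Srgap2, 1.40 for Robo1, 1.12 for Robo2, 1.01 for Slit3, 0.739 for Slit2, 0.623 for Slit1 and 0.238 for Srgap1. In CUS mice Slit3 read 1.35 CPM per kb and Slit2 read 0.527 CPM per kb.

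Genes of proteins that act with Slits and Robos were followed as a list, together with Mir218-1 and Mir218-2, 40 genes in all. The 38 protein genes could all be tested. The list covered further receptors and ligands, adaptors, kinases, GTPases and actin regulators. Of these, 28 had a log2 change below 0 and 10 above 0, against 8952 below and 9442 above for all 18394 genes. The median log2 change of the list was -0.05 against 0.01 for all genes. Only 2 passed the test, both lower, which is 5.26% of those tested against 3.29% of all genes. Of these, Homer1 is already named by the study among the genes changed by CUS in these bulk mice. The list was chosen with earlier results known, so neither this share nor the count below 0 carries weight of its own. Its genes were also measured in the same mice and are not independent observations. Sos1, an exchange factor that links activated receptors to Ras and Rac, fell from 112 ± 7.19 CPM (SD, n = 4) to 93.2 ± 1.25 CPM (SD, n = 5), a log2 change of -0.27 (SE 0.05) with an adjusted p of 0.0205 in edgeR. Homer1, a scaffold of the postsynaptic density, fell from 562 ± 59.3 CPM (SD, n = 4) to 442 ± 39.4 CPM (SD, n = 5), a log2 change of -0.35 (SE 0.08) with an adjusted p of 0.0402. Both gene calls were lost without control replicate 2, CUS replicate 4 or CUS replicate 5, and that of Homer1 also without control replicate 1 or CUS replicates 1 or 2. Without these mice the adjusted p reached 0.0799 for Sos1 and 0.136 for Homer1 in edgeR. Genes annotated within the span of a member were also checked: Mir691 and Gm22163 in Robo2 and Gm24273 in Srgap2 were tested in bulk, and none passed, with adjusted p-values of 0.373 to 0.729 in edgeR.

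**Figure D2:**
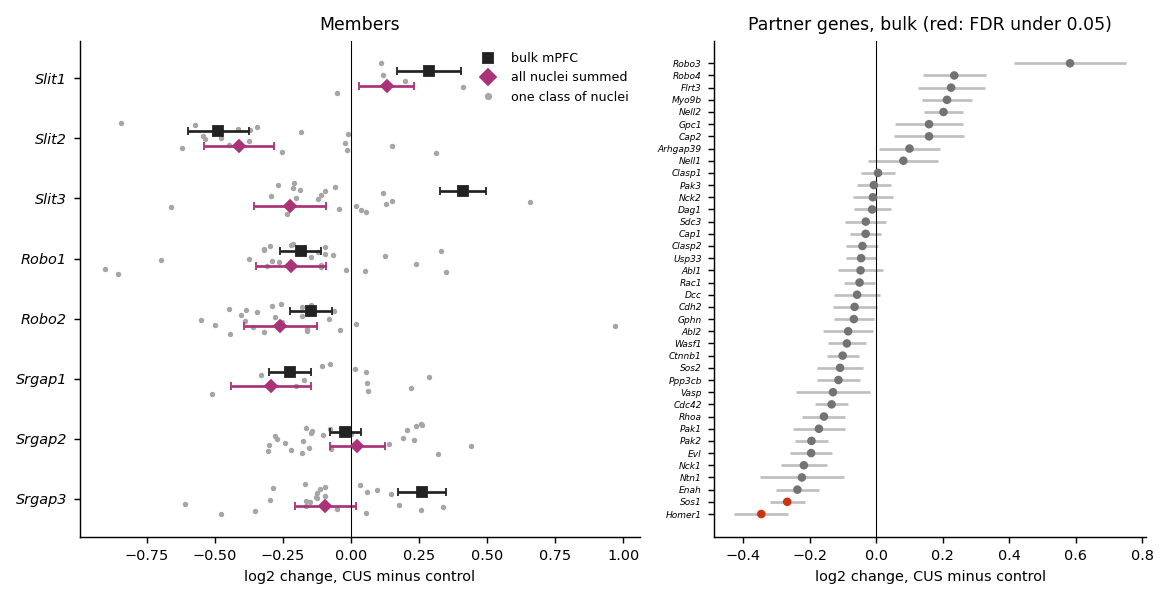
Left, log2 change (CUS minus control) of each member in bulk mPFC (black squares, bars are the SE), in all nuclei summed (purple diamonds, bars are the SE) and in each tested class of nuclei (grey points). Right, log2 change with its SE of the 38 tested partner genes in bulk mPFC, where Sos1 and Homer1 are the genes in red. Slit2 lay below 0 in both assays, whereas Slit3 was at 0.41 in bulk and at -0.22 in nuclei.

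In nuclei, members were distributed very unevenly over cell classes. Levels by class are the mean over 8 mice of UMI counts relative to the UMI total of the class (CPM), without further scaling, and clusters were made from these same nuclei, so they are a description. Of the 8 members, 5 were among the genes used for clustering. Since a droplet method samples mainly the end of a transcript, and intronic priming adds to long genes, values are compared between classes and not between genes.

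**Figure D3:**
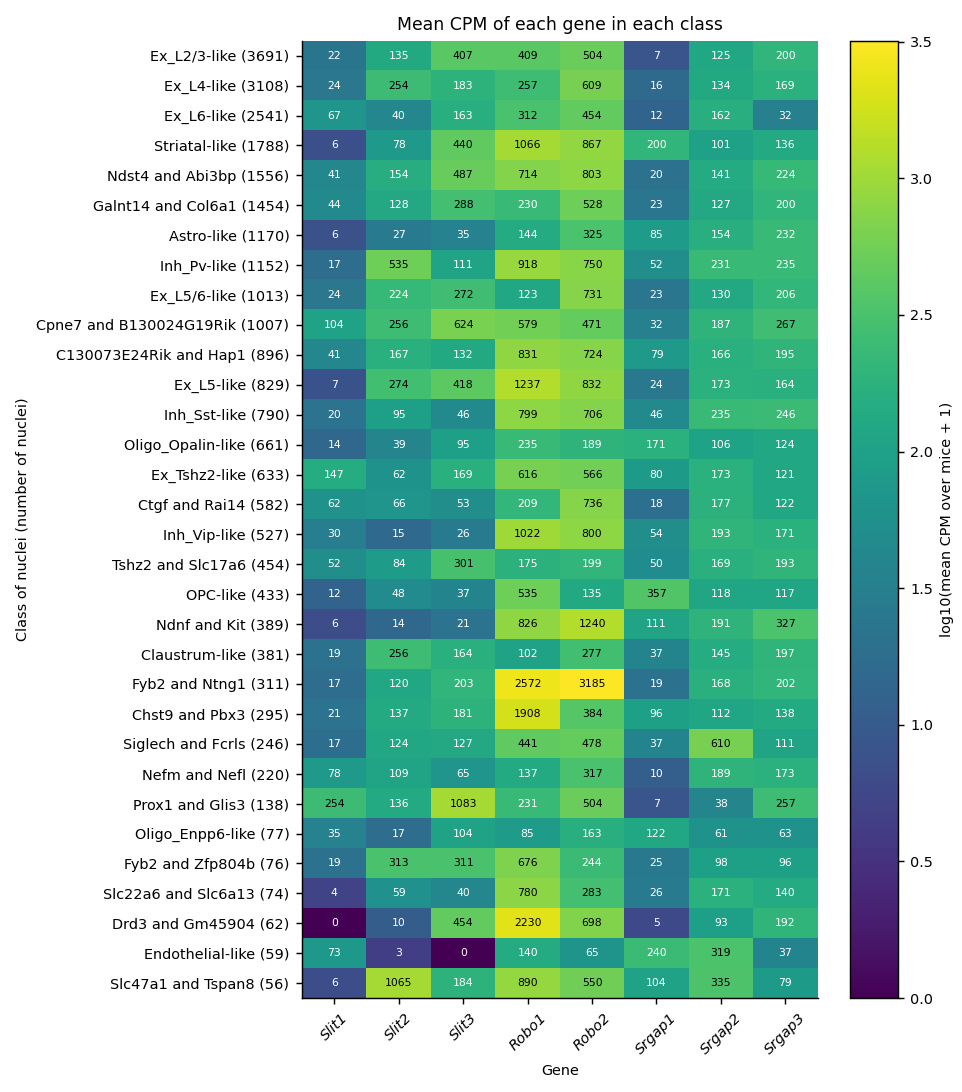
Mean level over mice of each gene (columns) in the 32 classes with at least 50 nuclei (rows, with the number of nuclei), printed in CPM and colored on a log10(CPM + 1) scale. The cluster led by Fyb2 and Ntng1 held the highest Robo1 and Robo2 levels (2572 and 3185 CPM), the cluster led by Prox1 and Glis3 the highest Slit3 (1083 CPM), and OPC-like nuclei the highest Srgap1 (357 CPM).

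Slit2 was highest by mean in the small cluster led by Slc47a1 and Tspan8, at 1065 ± 1060 CPM (SD, n = 8), from 56 nuclei and 78 UMIs. Of the large classes, parvalbumin interneurons (Inh_Pv-like, 1152 nuclei) came first at 535 ± 90.2 CPM (SD, n = 8), followed by Ex_L5-like at 274 ± 101 CPM, Claustrum-like at 256 ± 69.4 CPM, the cluster led by Cpne7 and B130024G19Rik at 256 ± 59.5 CPM and Ex_L4-like at 254 ± 59.0 CPM. These last 4 classes lay within their spread over mice. Layer 6 neurons (Ex_L6-like) read 40 CPM and the interneurons led by Ndnf and Kit 14 CPM.

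Slit3 was highest in the small cluster led by Prox1 and Glis3, at 1083 ± 249.9 CPM (SD, n = 8) from 321 UMIs. The lowest mouse there (752 CPM) was above the highest mouse of the next class. This cluster held 138 nuclei, 57 of them from control replicate 2 and only 4 from CUS replicate 1, so values per mouse rest on few nuclei. Slit3 followed in the cluster led by Cpne7 and B130024G19Rik (624 ± 83.1 CPM), the cluster led by Ndst4 and Abi3bp (487 ± 49.3 CPM), the small cluster led by Drd3 and Gm45904 (454 ± 307 CPM, 62 nuclei), Striatal-like (440 ± 86.9 CPM), Ex_L5-like (418 ± 75.7 CPM) and Ex_L2/3-like (407 ± 48.9 CPM). Slit2 and Slit3 were thus both present in upper layer, layer 5 and Cpne7 nuclei, but Inh_Pv-like nuclei read 111 CPM and Claustrum-like nuclei 164 CPM of Slit3. Endothelial-like nuclei held 0 UMIs of Slit3 in 59 nuclei.

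Slit1 was low in most classes. It was highest in the cluster led by Prox1 and Glis3 (254 ± 150 CPM, 86 UMIs), then in Ex_Tshz2-like nuclei (147 ± 40.6 CPM) and the cluster led by Cpne7 and B130024G19Rik (104 ± 17.7 CPM), and read 67.0 ± 13.2 CPM in Ex_L6-like nuclei. Neighbouring classes in this order overlapped between mice.

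Robo1 and Robo2 were highest in the same cluster, led by Fyb2 and Ntng1 (311 nuclei), at 2572 ± 238 and 3185 ± 302 CPM (SD, n = 8). For Robo2 the lowest mouse there (2771 CPM) was above the highest mouse of the next class, the interneurons led by Ndnf and Kit (1240 ± 279 CPM). Robo1 was also high in the clusters led by Drd3 and Gm45904 (2230 ± 730 CPM, 62 nuclei) and by Chst9 and Pbx3 (1908 ± 424 CPM), in Ex_L5-like nuclei (1237 ± 183 CPM) and in Striatal-like nuclei (1066 ± 90.6 CPM). The order of the classes differed between the receptors. Ex_L5/6-like nuclei came 30th of the 32 classes for Robo1 (123 CPM) and 9th for Robo2 (731 CPM), and OPC-like nuclei came 17th for Robo1 (535 CPM) and 31st for Robo2 (135 CPM).

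Srgap1 was highest outside the cortical excitatory neurons. It read 357 ± 109 CPM (SD, n = 8) in OPC-like nuclei, 200 ± 58.5 CPM in Striatal-like nuclei and 171 ± 67.8 CPM in Oligo_Opalin-like nuclei (mature oligodendrocytes), against 7.46 CPM in Ex_L2/3-like nuclei. The mean of Endothelial-like nuclei was 239.8 ± 370.3 CPM, but with 59 nuclei, 34 of them from CUS replicate 1, and 14 UMIs, and pooled over mice the level there was 119 CPM. Srgap2 was highest in the cluster led by Siglech and Fcrls (610 ± 266 CPM, 246 nuclei), in which all 8 microglial markers were enriched but which also held oligodendrocyte and neuronal RNA. Of the other classes with more than 200 nuclei it was highest in Inh_Sst-like (235 ± 47.9 CPM) and Inh_Pv-like nuclei (231 ± 28.0 CPM). Srgap3 ranged from 327 ± 82.4 CPM in the cluster led by Ndnf and Kit to 32.1 ± 5.6 CPM in Ex_L6-like nuclei.

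Over the 32 classes, log2(CPM + 1) of Robo1 and Robo2 correlated with r = 0.59, of Robo2 and Srgap3 with r = 0.55, and of Slit2 and Slit3 with r = 0.55, whereas Slit3 and Srgap1 gave r = -0.46. These are descriptions over classes that share libraries and differ in depth. Of 8353 other genes, the pattern of Slit3 was most like that of Fam185a (r = 0.81), Fam189a1 (r = 0.81) and Prmt8 (r = 0.79). That of Srgap2 was most like Siglech (r = 0.79), Mtrf1l (r = 0.72) and Ctss (r = 0.72), of which Siglech and Ctss are microglial genes. The closest for the other members were Tango2, Ttc26 and Faah for Slit1 (r = 0.69, 0.69 and 0.68) and Inha, Zc2hc1a and Ttc7b for Slit2 (r = 0.68, 0.67 and 0.67). They were Agk, Tspyl2 and Zkscan2 for Robo1 (r = 0.71, 0.68 and 0.67) and Gm44831, Ubr3 and Adarb1 for Robo2 (r = 0.75, 0.75 and 0.74). For Srgap1 they were Cpne2, Kat2b and Anapc16 (r = 0.68, 0.67 and 0.67), and for Srgap3 they were Slc4a3, Mblac2 and Zscan18 (r = 0.75, 0.73 and 0.71).

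CUS and control mice were then compared within each of the 25 classes of more than 200 nuclei, on UMIs summed per mouse, with TMM scaling and edgeR's quasi-likelihood test at an FDR of 0.2. The study's own fit differed, since it used the likelihood ratio test with a term for the batch of mice, after a strong batch effect had been seen. Each batch held control and CUS mice, but the labels do not give the batch of a mouse, so it could not be a term here and its part in the values below was not tested. Members could be tested in 155 of 200 combinations of gene and class. Of these, 2 passed, both of them Slit2 in the classes for which the set was chosen, against 0.111% of all 115965 combinations. Because that outcome was known, the count carries no weight of its own.

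**Figure D4:**
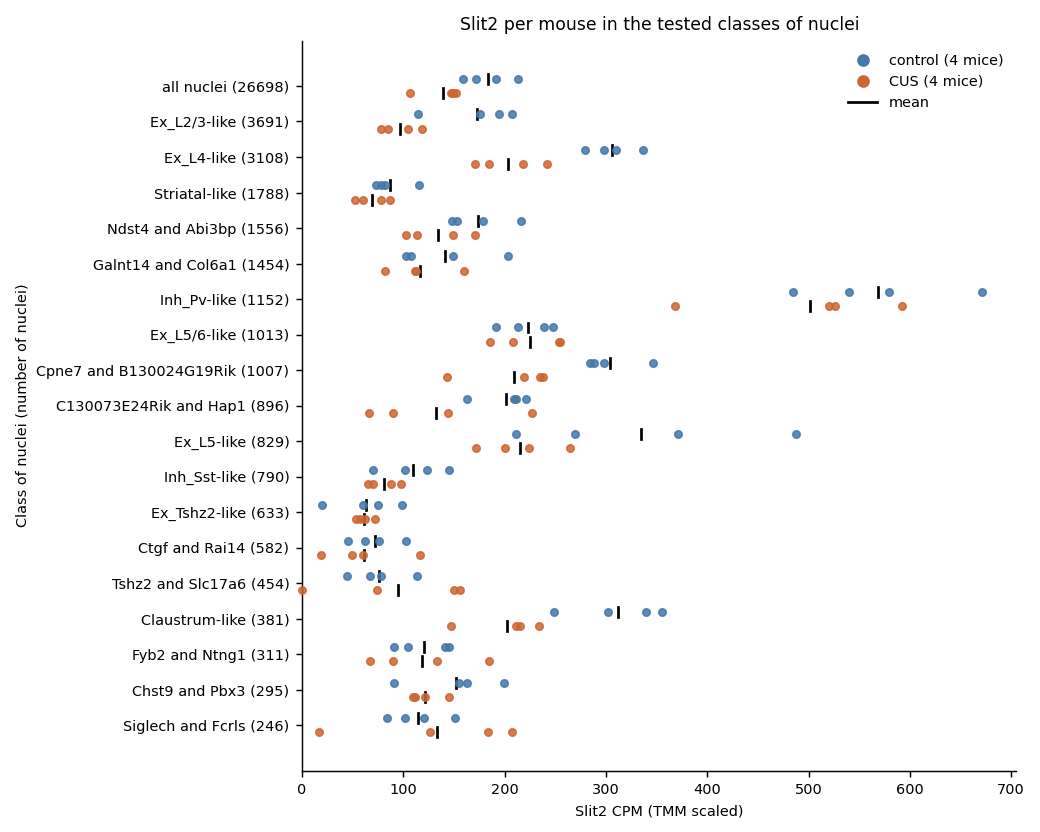
Slit2 level per mouse, in TMM-scaled CPM, in all nuclei summed and in the 18 classes in which Slit2 could be tested (rows, with the number of nuclei), for 4 control and 4 CUS mice with black bars at the means. CUS mice lay below all controls in all nuclei, in Ex_L4-like and Claustrum-like nuclei and in the cluster led by Cpne7 and B130024G19Rik.

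In Ex_L2/3-like nuclei Slit2 read 175, 207, 194 and 115 CPM in control replicates 1 to 4. It read 118, 84.7, 77.6 and 104 CPM in CUS replicates 1 to 4. The groups overlapped only where control replicate 4 fell below CUS replicate 1. The means were 173 ± 40.9 and 96.2 ± 18.4 CPM (SD, n = 4 each), a log2 difference of -0.84 (SE 0.16). In this class 0.875% of 5370 genes were called.

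In Ex_L4-like nuclei Slit2 read 298, 336, 310 and 279 CPM in control replicates 1 to 4. It read 171, 184, 242 and 218 CPM in CUS replicates 1 to 4. All CUS mice were below all controls, with means of 306 ± 24.0 and 204 ± 32.2 CPM (SD, n = 4 each) and a log2 difference of -0.57 (SE 0.13). In this class 0.653% of 4597 genes were called and 5% had groups that did not overlap. The Ex_L4-like call was known when the set was chosen, so its stability is only a description. The value no longer passed the threshold without control replicates 1 or 2 or CUS replicates 1 or 4, while the difference stayed between -0.66 and -0.50.

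In all nuclei summed, which include those of these layers, Slit2 read 172, 214, 191 and 159 CPM in control replicates 1 to 4 and 106, 149, 147 and 152 CPM in CUS replicates 1 to 4, a log2 difference of -0.41 (SE 0.13). CUS mice again lay below all controls, and groups that did not overlap, in either direction, were found for 4.12% of all genes in the sum. With the Ex_L2/3-like and Ex_L4-like nuclei left out of the sum, Slit2 read 151, 197, 173 and 155 CPM in control replicates 1 to 4 and 95.0, 159, 144 and 151 CPM in CUS replicates 1 to 4. These groups overlapped, with a log2 difference of -0.31 (SE 0.15) that was -0.17 without CUS replicate 1, the lowest mouse, and -0.38 without CUS replicate 2. The log2 difference of Slit2 was below 0 in 14 of the 16 tested classes other than Ex_L2/3-like and Ex_L4-like, with a median of -0.36. Over all 18 classes the count below 0 was 14 to 16 without any single mouse, and the median moved from -0.37 to -0.17 without control replicate 2. The classes share their 8 mice, so they are not independent observations.

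Outside these layers, the groups of CUS and control mice did not overlap in the cluster led by Cpne7 and B130024G19Rik (304 ± 28.7 against 209 ± 44.3 CPM, SD, n = 4 each) or in Claustrum-like nuclei (311 ± 47.2 against 202 ± 37.6 CPM). Separate groups were found for 3.63% and 3.4% of genes in these classes. The share of Claustrum-like nuclei also had separate groups, at 1.45% to 1.68% of nuclei in control mice and 1.11% to 1.39% in CUS mice, and its part in the values of this class was not tested. In Inh_Pv-like nuclei, the large class with most Slit2, the means were 569 ± 78.9 and 502 ± 94.8 CPM with overlapping groups and a log2 difference of -0.18 (SE 0.16), which ranged from -0.27 to -0.067 without any single mouse and was closest to 0 without CUS replicate 1. In Ex_L5/6-like nuclei they were 223 ± 25.5 and 225 ± 34.3 CPM, a log2 difference of -0.01 (SE 0.16) that was -0.30 without the doublet filter and 0.076 with a minimum of 1000 genes per nucleus. The only tested classes with a log2 difference above 0 were the clusters led by Tshz2 and Slc17a6 (73 UMIs) and by Siglech and Fcrls (61 UMIs), at 0.15 (SE 0.44) and 0.31 (SE 0.48). Neither sign was stable, with ranges of -0.10 to 0.43 and -0.14 to 0.69 without any single mouse and values down to -0.20 and -0.28 under the other settings. Values near 0 in Ex_Tshz2-like nuclei and in the cluster led by Fyb2 and Ntng1 (-0.02 and -0.01) also turned above 0 without single mice, up to 0.16 and 0.14, and the former reached 0.53 with a minimum of 1000 genes per nucleus. Whether the difference in one class departed from that in another was not tested.

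The other 7 members gave 137 tested combinations in classes, and edgeR's quasi-likelihood fit called 0 of them at an FDR of 0.2. Of these, 10 (7.3%) had an unadjusted p under 0.05, against 5.97% of all combinations, and 6 (4.38%) showed groups free of overlap, a share that was 3.33% over all combinations. The likelihood ratio test and DESeq2 also called none of the 7 in any class.

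Slit3, which rose in bulk mPFC, was not called in nuclei and had a lower mean there. In all nuclei summed it read 274, 330, 314 and 307 CPM in control replicates 1 to 4 and 209, 339, 255 and 245 CPM in CUS replicates 1 to 4. All controls were above 3 of the CUS mice, and CUS replicate 2 was above all controls, and the log2 change of -0.22 (SE 0.13) had an adjusted p of 0.691 in edgeR. Slit3 was lower in 13 of 20 classes, and in 11 to 17 without any single mouse. Striatal-like nuclei, which carry much Slit3, were fewer in 3 of the 4 CUS mice than in any control mouse, and without them the log2 change of Slit3 was -0.20. The part of these nuclei in the Slit3 value was not tested. Without CUS replicate 2 the log2 change of Slit3 was -0.37 with an adjusted p of 0.159 in edgeR, which passed the FDR of 0.2 for nuclei. The share of all genes that passed in the sum was then 4.06%, against 0.006% with all mice. The regions and ages of the bulk and nuclei mice differed, and the difference between the assays was not tested.

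The receptors had a lower mean in CUS mice in most classes, Robo1 in 20 and Robo2 in 23 of 25, with median log2 changes of -0.15 and -0.26, but no class passed the test. As for Slit2, the classes share their mice, so such counts, also those of the other members, are not of independent observations. Without any single mouse the count for Robo1 was 17 to 21, with its median moving to -0.09 without CUS replicate 1 and to -0.29 without CUS replicate 2. The count for Robo2 was 19 to 24, and it was lowest without control replicate 2, where the median was -0.13. In all nuclei summed, Robo1 was at 610 ± 28.7 and 524 ± 97.9 CPM (SD, n = 4 each) and Robo2 at 713 ± 72.1 and 596 ± 107 CPM, with adjusted p-values of 0.688 and 0.677 in edgeR. In Claustrum-like nuclei, the class whose share was also lower in each CUS mouse, Robo1 read 169, 145, 120 and 102 CPM in control replicates 1 to 4 and 44.2, 83.7, 71.1 and 86.3 CPM in CUS replicates 1 to 4. These groups did not overlap, as for 3.4% of genes in this class, with a log2 change of -0.90 (SE 0.31) and an adjusted p of 0.50 in edgeR, from 131 UMIs in all. Without CUS replicate 1, the lowest mouse, the log2 change was -0.72. In the cluster led by Ndst4 and Abi3bp, Robo2 was at 930 ± 72.6 and 680 ± 111 CPM (SD, n = 4 each), a log2 change of -0.45 (SE 0.14) without overlap (4.04% of genes there) and with an adjusted p of 0.564. In OPC-like nuclei Robo2 was on the opposite side, at 85.8 ± 28.9 and 185 ± 71.7 CPM without overlap (2.77% of genes there), but on 70 UMIs and with an adjusted p of 0.875.

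Among the srGAP genes, Srgap2 had a higher mean in CUS mice without overlap in Ex_L2/3-like nuclei, where 5.44% of genes had separate groups. It read 120, 121, 102 and 116 CPM in control replicates 1 to 4 and 134, 140, 145 and 125 CPM in CUS replicates 1 to 4, a log2 change of 0.26 (SE 0.12) with an adjusted p of 0.44 in edgeR. In Ex_L5-like nuclei it was at 161 ± 7.97 and 185 ± 6.88 CPM (SD, n = 4 each), again without overlap (3.37% of genes there) and with an adjusted p of 0.918. Srgap3 lay on the other side in the cluster led by Ndst4 and Abi3bp, at 247 ± 24.1 and 201 ± 33.8 CPM (SD, n = 4 each), a log2 change of -0.29 (SE 0.15) without overlap (4.04% of genes there) and with an adjusted p of 0.680 in edgeR. Without CUS replicate 1, the lowest mouse, the log2 change of Srgap3 in this cluster was -0.18. Over all 25 classes Srgap2 was lower in 15 and higher in 10, but without control replicate 2 it was lower in 10 and higher in 15. Srgap1 and Srgap3 in all nuclei summed had log2 changes of -0.29 (SE 0.15) and -0.09 (SE 0.11), with adjusted p-values of 0.665 and 0.839. Without the Striatal-like nuclei, which carried much Srgap1, its log2 change was -0.11. The part of these nuclei in the Srgap1 value was not tested. Slit1, testable in 6 classes, had a log2 change of 0.13 (SE 0.10) in all nuclei and a higher mean in 5 of those 6 classes.

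Apart from Slit2 in Ex_L2/3-like nuclei, calls in nuclei depended on single libraries. That call was kept without any single mouse, with log2 differences of -0.98 to -0.75, but it was known when the set was chosen. The losses of the Ex_L4-like call are given above. In the cluster led by C130073E24Rik and Hap1 the log2 difference of Slit2 was -0.95 without CUS replicate 4, against -0.48 with all mice. The other end of its range without any single mouse was -0.28. Without CUS replicate 2, 6 combinations passed the FDR of 0.2 in place of 2, the additional ones being Slit3 and Robo2 in Ex_L2/3-like nuclei (log2 changes of -0.32 and -0.34) and Robo2 in the clusters led by Ndst4 and Abi3bp and by Galnt14 and Col6a1 (-0.50 and -0.51). The share called over all genes and classes was then 1.14%, against 0.111% with all mice and 0.0345% to 0.0966% without any one of the other 7 mice. In all nuclei summed, 0.006% of 16668 genes passed with all mice. Without CUS replicate 2, 3 members in place of 0 passed there, Slit3, Srgap1 and Slit2, the last of them only a description. The share of all genes that passed was then 4.06%, against at most 0.006% without any one of the other 7 mice. The log2 changes of Robo1, Robo2 and Srgap1 in the sum were then -0.34, -0.35 and -0.47, and the log2 difference of Slit2 was -0.45. CUS replicate 2 had the highest value of the 4 CUS mice for Slit3, Robo1, Robo2 and Srgap1 in the summed nuclei. Its larger share of Striatal-like nuclei was measured in the same library, and its part in these values was not tested.

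CUS replicate 1, with its larger shares of astrocytes, precursors and endothelial nuclei, had the lowest value of the 4 CUS mice for every member but Slit1 in the summed nuclei. Without it the log2 difference of Slit2 there moved from -0.41 to -0.30, and the log2 changes of Slit3, Robo1 and Robo2 from -0.22, -0.22 and -0.26 to -0.13, -0.12 and -0.16. Those of Srgap1 and Srgap3 moved from -0.29 and -0.09 to -0.20 and -0.01, and none of the 8 members passed the FDR of 0.2. The part of this composition in these values was not tested. Control replicate 2, whose composition is given above, had the highest value of the 4 control mice for all 8 members in the summed nuclei. Without it the log2 difference of Slit2 there was -0.33, the log2 changes of Slit3, Robo1, Robo2 and Srgap1 were -0.19, -0.19, -0.19 and -0.26, and that of Srgap3 was -0.03. That of Srgap2 was 0.09 in place of 0.02, and the part of the composition was not tested.

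The partner genes gave 662 tested combinations in classes, and 1 of them (0.151%) passed, a share close to the 0.111% of all combinations. It was Nell1 in Ex_L4-like nuclei, with a lower level. Nell1, a secreted protein related to the Robo3 ligand Nell2, read 337, 449, 333 and 402 CPM in control replicates 1 to 4 and 211, 273, 283 and 296 CPM in CUS replicates 1 to 4. The log2 change was -0.50 (SE 0.13) with an adjusted p of 0.194 in edgeR, and the groups did not overlap, as for 5% of genes in this class. The call was lost without any one mouse other than control replicate 3 or CUS replicate 2, with an adjusted p of up to 0.643. In bulk mPFC the log2 change of Nell1 was 0.08 (SE 0.11) with an adjusted p of 0.702. No partner gene was called higher in any class.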

How the data were processed

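Bulk nuclear RNA-seq and sNucDrop-seq libraries were grouped by the condition and replicate number in their labels, and each mouse was 1 replicate. The deposited bulk values were raw read counts per gene and the deposited sNucDrop-seq values were raw UMI counts per gene and barcode, both made by the authors from reads mapped to mm10 with STAR, as the submitters' processing notes and the study's methods give. The gene annotation release of the bulk counts, and whether intronic reads were counted, are not given in the sources used here. The members and lists were chosen with earlier results of these data known.

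Of 40000 barcodes, 26698 were kept, which had 600 to 5000 genes, a mitochondrial share under 5% and a Scrublet score (scanpy 1.11.5) no higher than 0.2. Of the nuclei past the other filters, 15.2% were over the doublet score. They were clustered in Seurat 5.3.0 (2000 variable genes, 50 components, resolution 1), and a cluster was named from markers when it had 3 or more markers enriched 1.5-fold, of which 2 or more belonged to the 10 leading genes. Tests on counts used edgeR 4.0.16 in R 4.3.3 (TMM, quasi-likelihood test, Benjamini-Hochberg) over all genes: in bulk on 18394 genes kept by filterByExpr at an FDR of 0.05, and in nuclei on sums per mouse and class at an FDR of 0.2. In classes, genes whose summed UMIs exceeded 10% of the number of nuclei were tested. The batch of each nuclei mouse was not given in the labels, so it was not a term. Simulated counts were used to check the test, and on the bulk genes it recovered 87% of 200 genes given a log2 change of 1, with 3.33% of calls false. In Ex_L2/3-like sums at an FDR of 0.2 it recovered 99% of 200 such genes, with 25% of calls false. Smaller changes, such as those of the members in bulk, were not simulated, so their recovery is not known.

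All 8 members were named. Of a list of 40 further genes (38 partner genes and 2 hosted microRNA genes), those called were named, together with the hosted microRNA genes, tested genes that overlap a member, and the 3 genes most alike in pattern. Replicates of a group differed by more than counting noise, the chi-square divided by its degrees of freedom being 2.88 to 24.4 in bulk and 2.67 to 13.8 in nuclei. Alternatives were the likelihood ratio test, DESeq2 1.42.0, library totals without TMM, all genes without a low-count filter, a replicate block, other clusterings and nucleus filters, leaving out each mouse, and, chosen after seeing the data, leaving out the Striatal-like nuclei or the Ex_L2/3-like and Ex_L4-like nuclei, the latter also without each mouse.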

Additional observations from a re-analysis of the deposited data

Results flagged for a closer look

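In 68 groups of 4 or 5 mice, for members in bulk, in all nuclei summed and for Slit2 in each class, the gap between the most extreme mouse and its neighbour was set over the range of the group. By Dixon's 95% limit, 3 groups held a mouse far from the others, where chance gives about 5% of groups. All were in the nuclei summed per mouse. Slit2 was at 106 CPM in CUS replicate 1, below the other CUS mice at 147 to 152 CPM. Srgap3 was at 141 CPM in the same mouse. Srgap2 was at 174 CPM in control replicate 2.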

How the results depend on the processing

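In bulk, 2 members were called with every alternative except the replicate block (1, Slit3, with Slit2 at an adjusted p of 0.0501 in edgeR) and leaving out a mouse (0 to 4). The 2 called partner genes became 6 with the likelihood ratio test, 7 with DESeq2, 5 without TMM factors, 1 with the replicate block and 0 to 8 without a mouse. The share of all genes called under each of these bulk alternatives is not given here. These counts of members and partner genes therefore cannot be read as particular to them. The same limit applies to Slit1 and Srgap3, which passed in bulk only without control replicate 3. In nuclei, the 2 calls by class were known when the set was chosen, so their count is only a description, and it was 1 to 6 without a mouse. In all nuclei summed, 0 members became 1 without the filter on low counts and 0 to 3 without a mouse. Whether replicate numbers pair the mice is not known, and a check of correlations could not exclude it in bulk. There the same-number correlations were 0.03 to 0.23, and 4 of 8 mice correlated best with their own number. In nuclei the same-number correlations were -0.24 to 0.27, and 0 of 8 mice correlated best with their own number. The sign of Srgap2 turned in bulk without control replicate 4 (range without a mouse -0.058 to 0.022), and in all nuclei without control replicate 1 or CUS replicate 3 (range -0.029 to 0.091) or without the Ex_L2/3-like and Ex_L4-like nuclei (-0.027), none of them called. The causes were not tested. With 4 mice against 4, an exact permutation test of a single value cannot go below a p of 0.0286, and detection in small classes was not tested.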
